A study of Rattus norvegicus with 42 samples.

Results

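Levetiracetam (LEV) was compared with saline vehicle (VEH) in the hippocampus of rat pups, in the animals numbered 1 to 6 of each group. These 12 of the series' 42 libraries were chosen by their labels alone, as those whose sample codes begin with the letters CL (LEV, 6 libraries) or CV (VEH, 6 libraries). All pups were male Sprague Dawley rats, with no transgene or other altered allele in the labels. On postnatal day 7 they were injected intraperitoneally with saline or with LEV at 200 mg/kg and went back to the dam. On postnatal day 10, 72 h after the injection, the animals were perfused, the hippocampus was dissected and its total RNA was sequenced, 1 library per pup. A group took 1 pup per litter, and litters gave pups to each treatment. The comparison asks which hippocampal transcripts differ 3 days after a single dose of LEV in early life.

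LEV is an antiseizure drug given to newborns, and it binds the synaptic vesicle protein SV2A, which is present at most synapses. Astrocytes take up the glutamate and potassium that active neurons release. They do so through the glutamate transporters encoded by Slc1a2 and Slc1a3 and the potassium channel encoded by Kcnj10, and they move bicarbonate through the cotransporter encoded by Slc4a4. In the rodent forebrain the genes for these proteins rise during the first weeks after birth.

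The deposited values are estimated counts per RefSeq transcript, and they summed to 10251100 to 14488100 per VEH animal and 11055300 to 12482900 per LEV animal. The mean totals, 12612600 ± 1479410 and 11872800 ± 508583 (SD, n = 6 each), had a difference of -739807 (exact two-sided permutation test, p = 0.279). Of 15516 transcripts listed, 12911 had enough counts to be tested. VEH animal 1 stood apart from its label. It had 0.863 normalized counts of the Y-linked Eif2s3y and 0 of Ddx3, listed under that symbol, whereas the other VEH animals had 782 to 940 and 578 to 657 and the LEV animals 765 to 889 and 585 to 682, although all pups are labelled male. Values without this library are therefore given beside some of the results that it changes. The hippocampal markers Prox1, Wfs1 and Neurod6 were present in all 12 libraries, at no fewer than 624 normalized counts each. Wfs1, of CA1 neurons, had 634 to 968 in VEH and 624 to 1889 in LEV animals, with means of 790 and 1249 (exact permutation p = 0.0325, 0.118 adjusted over 69 levels compared, and unadjusted p = 0.039 without VEH animal 1), and its part in the calls was not tested. The first principal component, with 22.6% of the variance, did not part the groups (exact permutation p = 0.846). On the second, with 12.7%, VEH animals lay between 7.67 and 16.1 and LEV animals between -16.9 and -3.83 (exact permutation p = 0.00216, the smallest that 6 against 6 animals allow, and 0.00649 adjusted over 3 components).

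Among the transcripts that passed the limits below, more were lower than higher after LEV. Of all 12911 tested, 6152 had a negative log2 fold change. Of the 12911 tested, 190 transcripts of 182 genes (1.47%) passed both limits, 0.05 for the adjusted p and 0.32 for the size of the log2 fold change. The test was the quasi-likelihood test of edgeR, and p-values were adjusted by Benjamini and Hochberg's method over all tested transcripts. Of the 190, 160 fell (1.24% of those tested) and 30 rose (0.232%), with median log2 fold changes of -0.42 and 0.67. The 6 VEH and 6 LEV animals did not overlap for 129 of the 190, against 415 of all tested (3.21%). Genes listed with more than 1 transcript gave 46.7% of the transcripts that rose, 11.9% of those that fell and 12.5% of all tested. The authors' counting divided shared reads among the transcripts of such genes, so these values are less certain. Without VEH animal 1, 156 transcripts were called, 24 higher and 132 lower, and 141 of them were among the 190. Of the 48 called transcripts named by rule, 8 no longer passed without it.

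**Figure D1:**
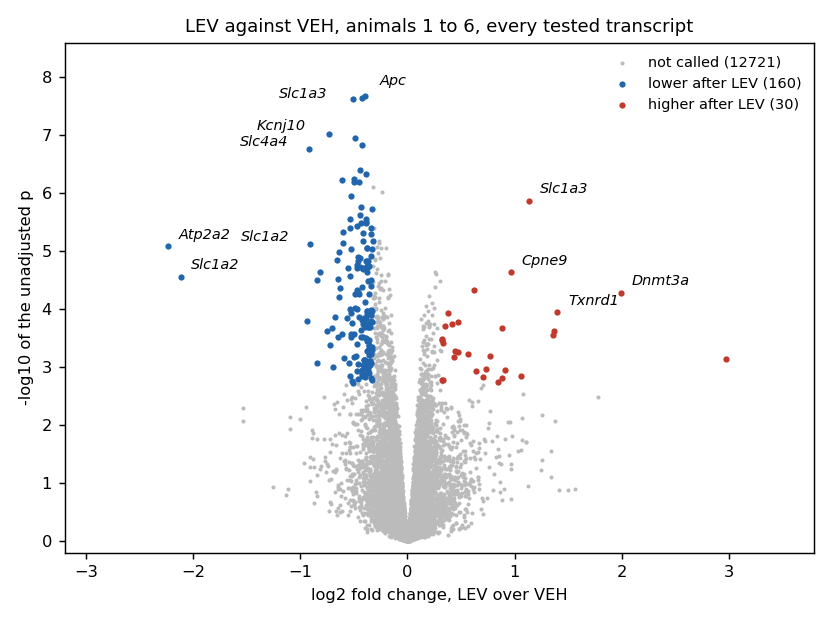
Log2 fold change of LEV over VEH (x axis) against the -log10 of the unadjusted p (y axis) for each of the 12911 transcripts tested in animals 1 to 6. The 160 transcripts called lower outnumber the 30 called higher.

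Astrocyte genes held many of the transcripts that fell. Of 41 tested transcripts on a list of astrocyte markers 10 fell (24.4%, against 1.24% of all tested) and 2 rose, both of them minor transcripts of Slc1a3. Of the 10, 2 are Aqp4 under a pair of identifiers with identical values. The 10 belong to 7 genes. Of these, Slc4a4, Slc1a2 and Zbtb20 are among the genes that the study names for LEV. It chose them on these animals among others, so the share is not independent evidence. The median log2 fold change of the list was -0.11, against 0.0068 over all tested transcripts, and 33 of the 41 were negative. On the study's own longer astrocyte list, 36 of 424 tested transcripts fell (8.49%) and 2 rose, with a median of -0.07. The marker list summed to 92386 to 106286 normalized counts in VEH and 80953 to 92481 in LEV animals, so the groups met only at their edge. Without VEH animal 1, 10 transcripts of this list were called. In RNA from whole tissue, fewer astrocytes and less of these RNAs per astrocyte cannot be told apart.

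The main transcript of Slc1a3 (NM_019225), which encodes the glutamate transporter GLAST, had 11588 to 13320 normalized counts in VEH animals (median 12099) and 8770 to 9699 in LEV animals (median 8899). The groups did not overlap, and the log2 fold change was -0.42 ± 0.04 (SE, n = 6 and 6, adjusted p = 0.000102). Kcnj10, the inwardly rectifying potassium channel of astrocytes, had 281 to 373 (median 302) in VEH and 173 to 210 (median 183) in LEV animals. Every LEV animal was below every VEH animal, and Kcnj10 fell by 0.74 ± 0.08 on the log2 scale (adjusted p = 0.000282). Slc4a4, the sodium bicarbonate cotransporter, had 630 to 993 (median 801) in VEH and 360 to 514 (median 415) in LEV animals. It fell by 0.92 ± 0.10, again without overlap (adjusted p = 0.000319).

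Slc1a2 encodes the glutamate transporter GLT-1, which takes up most synaptic glutamate in the forebrain, and all 3 of its tested transcripts fell without overlap. The most abundant, NM_001302089, had 1609 to 2429 normalized counts in VEH and 801 to 1402 in LEV animals (log2 fold change -0.91 ± 0.14, adjusted p = 0.00257). NM_001035233 fell by 0.61 ± 0.09 (adjusted p = 0.00201). NM_017215, with only 10.4 to 28.3 counts in VEH and 1.92 to 4.34 in LEV animals, fell by 2.12 ± 0.36 (adjusted p = 0.00433). Summed over its transcripts Slc1a2 fell by 0.87 ± 0.12 (adjusted p = 0.000656). Slc6a11, the GABA transporter GAT-3 of astrocytes, had 1159 to 1404 in VEH and 872 to 1172 in LEV animals, a slight overlap, and fell by 0.41 ± 0.07 (adjusted p = 0.00371). Zbtb20, a transcription factor of CA1 neurons and astrocytes, had 345 to 534 in VEH and 234 to 339 in LEV animals and fell by 0.64 ± 0.12 (adjusted p = 0.00699). The water channel transcript Aqp4 fell by 0.38 ± 0.07 (adjusted p = 0.0101), with overlap.

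Other astrocyte markers stayed short of the limits. Gfap, the filament that rises in reactive astrocytes, had 6969 to 9629 normalized counts in VEH and 6741 to 8682 in LEV animals, a log2 difference of -0.11 ± 0.08 (adjusted p = 0.568). S100b, Aldh1l1 and Glul, a calcium-binding protein and enzymes used to identify astrocytes, differed by -0.03 ± 0.06, -0.05 ± 0.10 and -0.13 ± 0.05 (adjusted p = 0.817, 0.863 and 0.188). Gja1, the astrocyte gap junction protein, differed by -0.21 ± 0.06, past the limit on the adjusted p (0.0478) but not on the fold change. S100b, Aldh1l1, Glul and Gja1 were picked from the list after their values were seen.

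**Figure D2:**
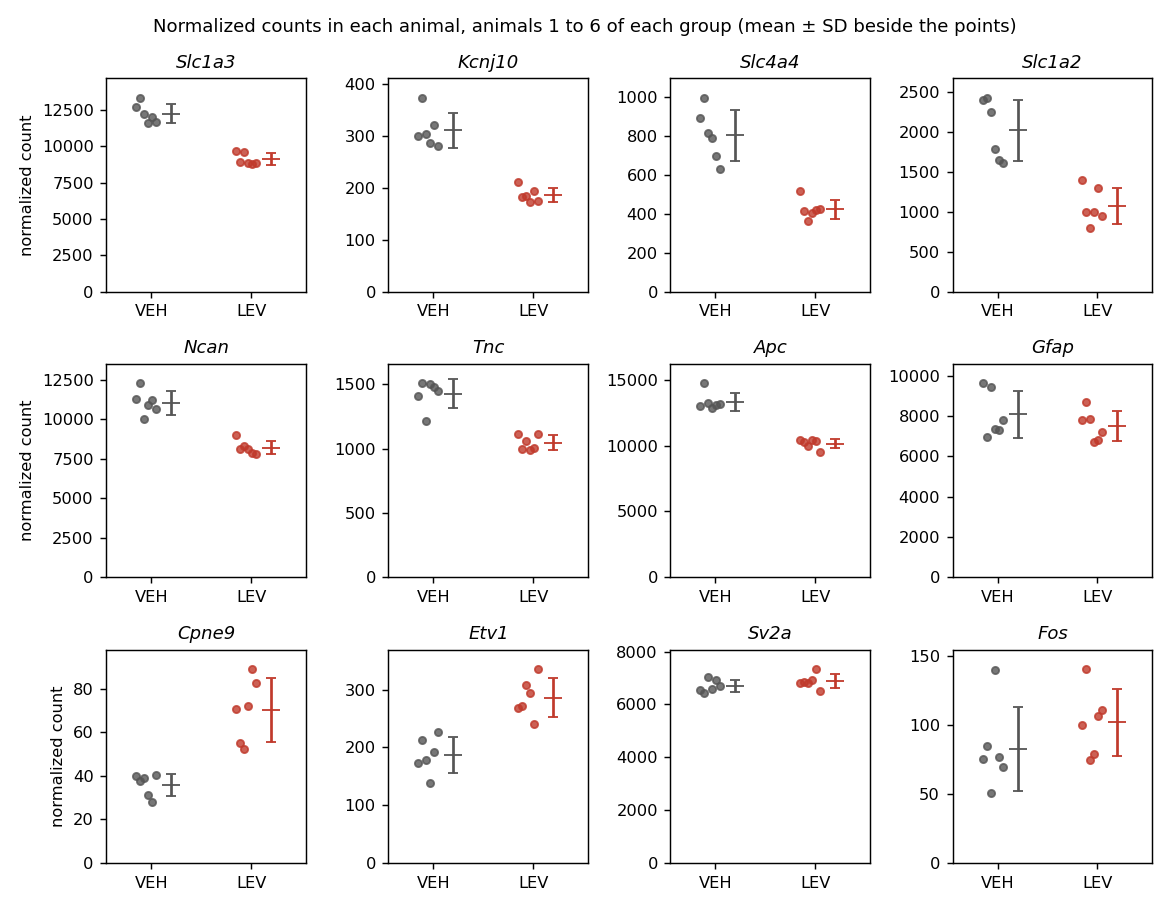
Normalized counts (y axes, starting at 0) of 12 transcripts in each VEH and LEV animal, with the mean and SD of each group, where Slc1a3 is NM_019225, Slc1a2 is NM_001302089 and Etv1 is NM_001108709. Slc1a3, Kcnj10 and Slc4a4 have every LEV point below every VEH point, whereas the groups overlap for Gfap, Sv2a and Fos.

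The promoters of Slc1a3 and Kcnj10, the genes of the astrocyte list with the smallest adjusted p, are shown because they fell together. They run from 250 bases before to 50 bases after the gene start (RefSeq, build GRCr8, a later build than the rn6 of the counts). Slc1a3 lies at chr2:59557759-59558058 on the minus strand and Kcnj10 at chr13:87334260-87334559 on the plus strand. Capitals mark TTGGCA, read on either strand (TGCCAA on the other), the half-site of the nuclear factor I family, which takes part in astrocyte formation.
Slc1a3: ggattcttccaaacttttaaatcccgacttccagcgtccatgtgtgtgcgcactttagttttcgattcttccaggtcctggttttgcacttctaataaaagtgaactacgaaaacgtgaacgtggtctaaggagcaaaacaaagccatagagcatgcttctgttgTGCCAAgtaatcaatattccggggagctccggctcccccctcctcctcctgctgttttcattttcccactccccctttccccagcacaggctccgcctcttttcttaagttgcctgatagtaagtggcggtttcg
Kcnj10: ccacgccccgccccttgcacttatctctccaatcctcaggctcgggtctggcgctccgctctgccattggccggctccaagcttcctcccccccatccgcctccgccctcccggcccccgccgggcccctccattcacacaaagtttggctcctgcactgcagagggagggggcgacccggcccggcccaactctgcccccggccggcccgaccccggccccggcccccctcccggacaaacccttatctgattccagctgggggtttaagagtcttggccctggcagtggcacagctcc
The Slc1a3 window holds 1 such half-site and the Kcnj10 window 0, and their GC contents are 48.3% and 70.3%. A promoter was matched for 118 of the 155 genes with a transcript called lower, and 16 of them hold the half-site (13.6%), against 13.6% of all 27457 promoters in the table and 11% of the 9544 matched to tested genes. Nfib, a gene of the family that was named after its value was seen, fell by 0.35 ± 0.07 (adjusted p = 0.0131). Other genes of the family are not given here, and the part of the family in the falls was not tested.

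Genes of the extracellular matrix of the developing brain were listed after some of their values were known, a choice that favours the share called. Of 28 tested transcripts of 22 such genes 9 fell (32.1%, against 1.24% of all tested) and 1 rose, with a median log2 fold change of -0.24. Ncan, the proteoglycan neurocan, had 10028 to 12268 normalized counts in VEH (median 11032) and 7771 to 9011 in LEV animals (median 8143). The groups did not overlap, and Ncan fell by 0.43 ± 0.05 (adjusted p = 0.000312). Tnc, the glycoprotein tenascin C made by immature astrocytes, had 1212 to 1506 in VEH and 992 to 1113 in LEV animals and fell by 0.45 ± 0.05 (adjusted p = 0.000625). Ndst1, an enzyme of heparan sulfate synthesis, fell by 0.49 ± 0.05 (adjusted p = 0.000282), with 1225 to 1416 and 838 to 1026 normalized counts.

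Reln, the guidance protein secreted by Cajal-Retzius cells and interneurons, had 3739 to 4337 normalized counts in VEH and 2909 to 3469 in LEV animals. It fell by 0.34 ± 0.05 (adjusted p = 0.00203). Hapln1, which links proteoglycans to hyaluronan, and Tnr, tenascin R of perineuronal nets, fell by 0.34 ± 0.06 and 0.34 ± 0.09 (adjusted p = 0.00484 and 0.0439).

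Of 20 tested transcripts of oligodendrocyte precursors 4 fell (20%, against 1.24% of all tested) and 1 rose, with a median of -0.10. The falls were Gpr17, both transcripts of Ptprz1 and Vcan NM_001170560, and the rise was Vcan NM_001170559. As a sum Vcan was under the fold limit, so its fall and rise are no net call of the gene. The list summed to 29544 to 33125 normalized counts in VEH and 25736 to 27260 in LEV animals. Gpr17, the receptor of precursors that are about to mature, had 415 to 535 in VEH and 305 to 398 in LEV animals and fell by 0.46 ± 0.07 (adjusted p = 0.00322). Both transcripts of Ptprz1, a receptor phosphatase of precursors and astrocytes, fell, by 0.37 ± 0.06 and 0.37 ± 0.06 (adjusted p = 0.00322 and 0.00403). Pdgfra, the growth factor receptor that defines precursors, had 2616 to 3028 and 2120 to 2615 normalized counts, and its difference of -0.26 ± 0.05 was under the fold limit (adjusted p = 0.0128). Olig2, a transcription factor of the whole lineage, differed by -0.0083 ± 0.06 (adjusted p = 0.968).

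Receptors of the BMP and Notch pathways, which steer neural precursors, were also listed after values were known, which favours the share called. Of 13 tested transcripts 3 fell (23.1%, against 1.24% of all tested). Bmpr1a had 650 to 782 normalized counts in VEH and 458 to 540 in LEV animals and fell by 0.45 ± 0.06 (adjusted p = 0.000641). Bmpr1b and Notch3 fell by 0.93 ± 0.19 and 0.44 ± 0.06 (adjusted p = 0.012 and 0.00155). Notch1 and Notch2 differed by -0.14 ± 0.04 and -0.17 ± 0.10 (adjusted p = 0.0832 and 0.432).

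Among 41 glutamate receptor transcripts 3 fell (7.32%, against 1.24% of all tested) and 1 rose. Grm3, a metabotropic receptor of astrocytes and neurons, had 521 to 750 normalized counts in VEH and 312 to 450 in LEV animals and fell by 0.64 ± 0.11 (adjusted p = 0.00478). Grin2b, the NMDA receptor subunit of the newborn brain, had 729 to 1151 and 459 to 817, with overlap, and fell by 0.54 ± 0.14 (adjusted p = 0.0423). Grm4, a presynaptic metabotropic receptor, rose by 0.32 ± 0.07 (adjusted p = 0.0172). Without VEH animal 1, Grin2b no longer passed (adjusted p = 0.0953), and 2 transcripts of the list were called. Of the 12 fits that left out 1 library, Grin2b passed in 4 and Grm4 in 8.

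Of 43 synaptic vesicle transcripts 1 was called (2.33%, against 1.47% of all tested). This was Cplx2, a regulator of vesicle fusion, with 3126 to 3748 normalized counts in VEH and 2222 to 3007 in LEV animals, a fall by 0.38 ± 0.06 (adjusted p = 0.00369). Sv2a, which encodes the protein that LEV binds, had 6441 to 7037 in VEH and 6526 to 7344 in LEV animals, a log2 difference of 0.04 ± 0.03 (adjusted p = 0.622). Syt1, the calcium sensor of release, differed by -0.03 ± 0.04 (adjusted p = 0.788).

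Of 28 interneuron transcripts 2 fell (7.14%, against 1.24% of all tested), Reln and Sox6. Sox6, a transcription factor of interneurons and oligodendrocyte precursors, had 104 to 139 normalized counts in VEH and 67.2 to 84.5 in LEV animals and fell by 0.64 ± 0.10 (adjusted p = 0.00281). Gad1, which makes GABA, and Pvalb, a calcium-binding protein of interneurons, differed by 0.06 ± 0.04 and 0.23 ± 0.18 (adjusted p = 0.531 and 0.557). Among 48 ion channel transcripts 2 fell (4.17%, against 1.24% of all tested). The potassium channel Kcna2 and the calcium channel Cacna1b (NM_001195199) fell by 0.40 ± 0.10 and 0.51 ± 0.14 (adjusted p = 0.0436 and 0.0491). Each of them passed in only 2 of the 12 fits that left out 1 library, and neither passed without VEH animal 1.

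A list of calcium stores and pumps was written after values were known, which favours the share called. It had 4 falls (11.8%, against 1.24% of all tested) and 1 rise among 34 tested transcripts. Ryr2, a ryanodine receptor that releases calcium, fell for NM_032078, by 0.61 ± 0.07 (adjusted p = 0.000641), with 370 to 479 normalized counts in VEH and 239 to 304 in LEV animals. Summed over its transcripts Ryr2 differed by -0.15 ± 0.07 (adjusted p = 0.224). Itpr2, the inositol trisphosphate receptor of astrocytes, fell by 0.36 ± 0.08 and 1 of 9 tested transcripts of Slc8a1, the sodium-calcium exchanger (NM_001270774), by 0.49 ± 0.09 (adjusted p = 0.0201 and 0.00964). Tpcn2, a calcium channel of lysosomes, rose by 0.44 ± 0.10 (adjusted p = 0.0229).

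Further transcripts were among those with the smallest adjusted p. Apc, which limits Wnt signaling, had 12849 to 14722 normalized counts in VEH (median 13121) and 9511 to 10450 in LEV animals (median 10302). It fell by 0.39 ± 0.04, without overlap (adjusted p = 0.000102). Gpam, a mitochondrial enzyme of glycerolipid synthesis, had 828 to 890 and 548 to 668 and fell by 0.51 ± 0.05 (adjusted p = 0.000102). Shisa6, an auxiliary subunit of AMPA receptors, fell by 0.50 ± 0.06 (adjusted p = 0.000641). Gpam and Zhx3 are on the study's astrocyte list. Zhx3, a transcriptional repressor, and Lsm11, which takes part in histone mRNA processing, fell by 0.39 ± 0.05 and 0.50 ± 0.06 (adjusted p = 0.000641 and 0.000641).

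The largest falls included further receptors and transporters. Erbb4, the neuregulin receptor of interneurons, had 156 to 204 normalized counts in VEH and 65.9 to 138 in LEV animals and fell by 0.85 ± 0.15 (adjusted p = 0.00484). Itgb8, an integrin that activates TGF-beta, fell by 0.81 ± 0.14 (adjusted p = 0.00403). Slc5a3, the inositol cotransporter, fell by 0.75 ± 0.16 and Ptar1 by 0.72 ± 0.16 (adjusted p = 0.0142 and 0.0195), and Ptar1 did not pass without VEH animal 1 (adjusted p = 0.0509).

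Among the 30 transcripts that rose, Cpne9, a calcium-dependent membrane-binding protein, had 27.9 to 40.2 normalized counts in VEH (median 38.2) and 52.1 to 89 in LEV animals (median 71.2). Every LEV animal was above every VEH animal, with a log2 fold change of 0.97 ± 0.16 (adjusted p = 0.00403). Etv1, a transcription factor of the ETS family, rose for NM_001108709, by 0.62 ± 0.11 (adjusted p = 0.0059), with 138 to 226 and 240 to 336. Summed over its transcripts Etv1 differed by -0.08 ± 0.07 (adjusted p = 0.607). Cpne9 and Etv1 were the 2 called of 23 transcripts of hippocampal subfields (8.70%, against 1.47% of all tested).

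Pomc, the precursor of melanocortins and endorphin, had 34 to 56.7 normalized counts in VEH and 50.9 to 93.1 in LEV animals, with overlap, and rose by 0.77 ± 0.18 (adjusted p = 0.0263). A transcript of Kitlg, the ligand of the receptor Kit, rose by 1.06 ± 0.27 (adjusted p = 0.0423). Transcripts of Crem, a cAMP-responsive regulator, and Ncoa4, a receptor for ferritin turnover, rose by 0.89 ± 0.23 and 0.85 ± 0.22 (adjusted p = 0.0442 and 0.0478), and neither passed without VEH animal 1 (adjusted p = 0.0745 and 0.103). Of the 12 fits that left out 1 library, Pomc passed in 6, Kitlg in 3, Crem in 4 and Ncoa4 in 3.

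Where a gene has several listed transcripts, some results depended on how reads were divided among them. Slc1a3 and Vcan were the only 2 genes called in both directions. While the main Slc1a3 transcript fell, NM_001289943 rose by 1.13 ± 0.15, from 168 to 344 normalized counts in VEH to 481 to 767 in LEV animals (adjusted p = 0.00101), and NM_001289941 by 0.57 ± 0.13 (adjusted p = 0.025). On chromosome 2 of rn6, all 4 Slc1a3 transcripts have base 57860881 as their lower coordinate, and their upper coordinates lie within 21 bases of each other. As a sum Slc1a3 fell by 0.32 ± 0.04 (adjusted p = 0.000225). For Vcan, the proteoglycan versican, NM_001170560 fell by 0.53 ± 0.07 and NM_001170559 rose by 1.37 ± 0.29 (adjusted p = 0.00164 and 0.0144). As a sum Vcan differed by -0.29 ± 0.06, under the fold limit (adjusted p = 0.00937).

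Other large changes were in genes of this kind too. Atp2a2, the calcium pump of the endoplasmic reticulum, had 287 to 797 normalized counts of NM_001110823 in VEH and 41.4 to 249 in LEV animals, a fall by 2.24 ± 0.34 (adjusted p = 0.00258). Its sum differed by 0.03 ± 0.04. A transcript of Txnrd1, thioredoxin reductase (NM_001351981), rose by 1.40 ± 0.27 (adjusted p = 0.0105), while the sum differed by -0.02 ± 0.04. Dnmt3a, a DNA methyltransferase, rose for NM_001003957, from 4.36 to 15.7 to 17.1 to 69.4 normalized counts (2.00 ± 0.36, adjusted p = 0.00638). Its more abundant NM_001003958 differed by -0.32 ± 0.05, just under the fold limit (adjusted p = 0.00485), and the sum by -0.28 ± 0.05. Of the 43 genes with a called transcript under the naming rule, 10 were not called as sums, namely Atp2a2, Cacna1b, Crem, Dnmt3a, Etv1, Kitlg, Ncoa4, Ryr2, Txnrd1 and Vcan.

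The genes that the study names for LEV have 20 listed transcripts, some of which it does not name itself. Of these, 17 were tested and 10 were called (58.8%, against 1.47% of all tested), 6 lower and 4 higher. The study chose these genes on these animals among others, so their share and directions are not independent evidence. Those called include Slc4a4, Slc1a2 with all 3 transcripts (NM_017215 was taken in by its symbol), Zbtb20 and Grin2b among the falls, and Cpne9, Dnmt3a NM_001003957 and Tpcn2 among the rises. Of those not called, Pramef8 differed by -0.61 ± 0.18 and Hfe, the hemochromatosis gene, by -0.63 ± 0.60 (adjusted p = 0.0833 and 0.642). LOC310926 and the ribosomal RNA Rn18s differed by -0.10 ± 0.20 and -0.05 ± 0.10 (adjusted p = 0.838 and 0.854). The activity-induced gene Fos had 50.4 to 140 normalized counts in VEH and 74.4 to 141 in LEV animals, a difference of 0.30 ± 0.21 (adjusted p = 0.497), and Npas4 differed by 0.18 ± 0.20 (adjusted p = 0.699).

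No transcript was called in 24 of the 33 hand-written and 4 study lists (edgeR). Over all tested transcripts 2335 (18.1%) had an unadjusted p under 0.05, 1034 of them higher and 1301 lower. The 24 lists held 40 tested transcripts of immediate early genes, with 5 at an unadjusted p under 0.05, 28 of myelinating oligodendrocytes with 2, 23 of microglia with 4, 29 of mitosis and S phase with 7, and 27 of apoptosis and p53 with 4. DESeq2 called up to 2 transcripts in 3 of the 24 lists, and limma-voom called 0 in all 24. For oxidative phosphorylation 24 of 79 had an unadjusted p under 0.05, 22 of them higher. For ribosomal proteins it was 13 of 93, all of them higher. That share was smaller than the 18.1% over all tested in both directions, but larger than that of the 1034 higher among all 12911. For cholesterol synthesis 7 of 22 had an unadjusted p under 0.05, all of them lower. The median log2 fold changes of these lists were 0.06, 0.05 and -0.06. Of the 19 transcripts of the study's qPCR genes 0 were called (edgeR), with 3 at an unadjusted p under 0.05, no larger a share than the 18.1% over all tested, and 0 by DESeq2 or limma-voom. Of Vegfa, a vascular growth factor, 1 of 14 listed transcripts (NM_001110336) differed by 0.13 ± 0.07, and the sum over them by 0.12 ± 0.04 (adjusted p = 0.127). Cd68 of phagocytes, Opalin of myelin and Aif1 of microglia differed by 0.30 ± 0.20, -0.08 ± 0.50 and -0.0089 ± 0.09.

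**Figure D3:**
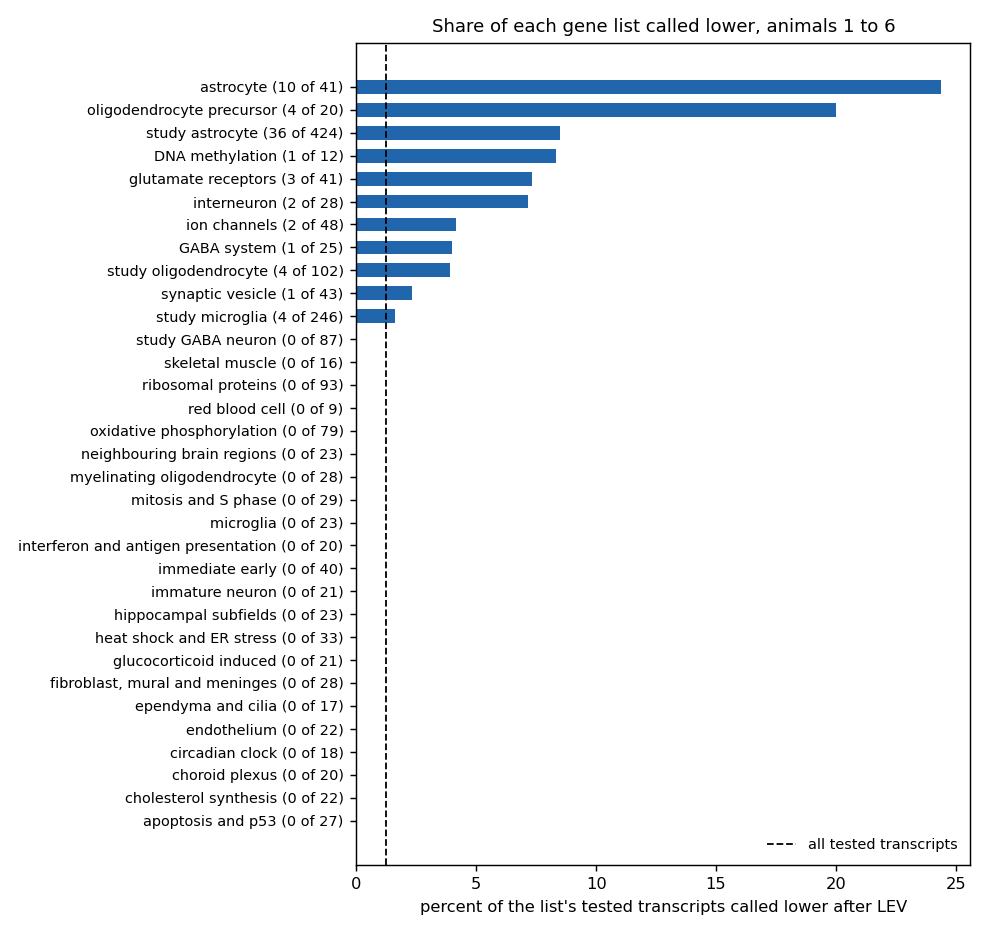
Percent of the tested transcripts of each list that were called lower after LEV in animals 1 to 6 (x axis), where lists named "study" are the cell type lists of the study. The line is the 1.24% of all tested transcripts, and the astrocyte list (24.4%) and the oligodendrocyte precursor list (20%) lie far above it. Each transcript of a gene is counted, and the astrocyte list holds genes that the study names for LEV.

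Tissue next to the hippocampus was present in both groups. The choroid plexus transcript Ttr had 9.6 to 53204 normalized counts in VEH and 42.2 to 46144 in LEV animals (exact permutation p = 0.727). With the level of choroid plexus markers in the model 196 transcripts were called, 187 of them among the 190. Skeletal muscle markers summed to 869 to 1122 in VEH and 712 to 1162 in LEV animals. The share of Rn18s was 1.11% ± 0.103 in VEH and 1.08% ± 0.152 in LEV animals (SD, n = 6 each, exact permutation p = 0.665).

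Some levels of other cell types moved with the groups. The 22 endothelial transcripts summed to 11090 to 11826 normalized counts in VEH and 11784 to 12949 in LEV animals, with 21 of 22 higher after LEV and 0 called (edgeR, 8 at an unadjusted p under 0.05, 0 by DESeq2 or limma-voom). For the endothelial sum the exact permutation p, adjusted over 69 levels compared, was 0.0407, and 0.103 without VEH animal 1. The nuclear-retained RNAs Miat and Snhg11 summed to 19460 to 26479 and 25922 to 29201. The neuronal marker Snap25 summed to 8066 to 8869 and 9020 to 10039, whereas the neuronal markers Slc17a7 and Gad1 differed little (exact permutation p = 0.996 and 0.203). The microglial marker Cx3cr1 summed to 197 to 241 and 163 to 208. Csf1r and P2ry12, the other microglial markers, were lower at exact permutation p = 0.0714 and 0.0303. The sum of the microglia list had p = 0.173 and that of the study's longer microglia list p = 0.00866 (exact permutation). The part of these levels in the calls was not tested.

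The transcripts that fell spanned more of the genome at the median than those that rose. Their median span on the genome, from the first to the last base in rn6, was 71.6 kb, against 22.5 kb for those that rose and 20.9 kb for all tested. The share called lower was 0.374% of transcripts spanning under 10 kb, 0.628% from 10 to 20 kb, 1.01% from 20 to 50 kb, 1.59% from 50 to 100 kb and 4.22% from 100 kb. Of the 160 that fell, 14 spanned under 10 kb, 16 spanned 10 to 20 kb and 70 spanned 100 kb or more. The median log2 fold change of all tested transcripts went from 0.04 in the shortest to -0.06 in the longest class. In each animal, the mean log2 CPM of the longest class minus that of the shortest was 0.65 to 0.73 in VEH and 0.49 to 0.63 in LEV animals. The groups did not overlap, and the part of gene length in the calls was not tested.

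**Figure D4:**
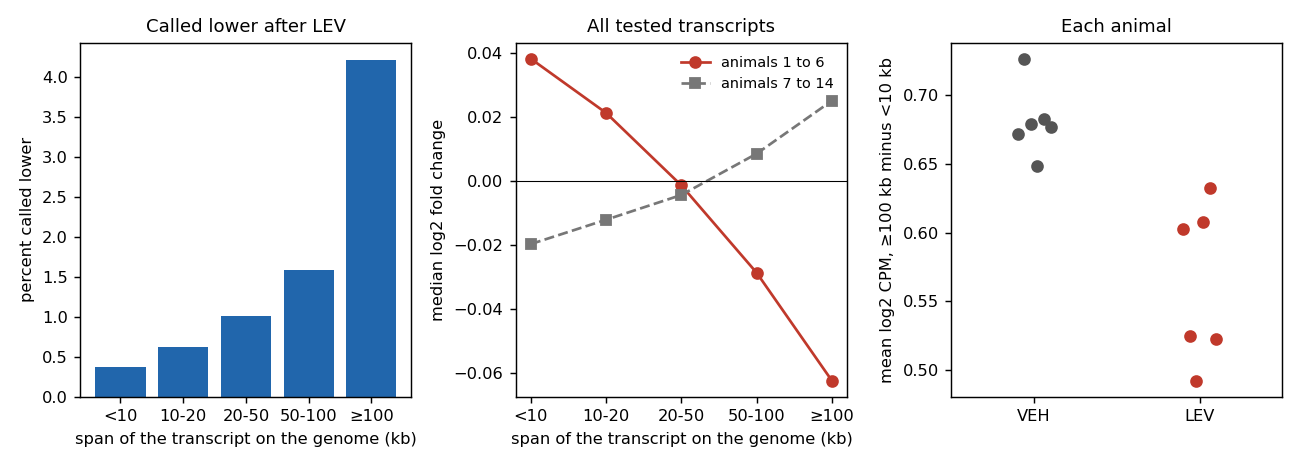
Percent of tested transcripts called lower in animals 1 to 6, and median log2 fold change in animals 1 to 6 and 7 to 14, by class of span on the genome in kb, and the log2 CPM difference between the longest and the shortest class in each animal. The share rises from 0.374% to 4.22% with span, and the LEV points of the last panel lie below the VEH points.

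The same contrast in animals 7 to 14, with other pups in both groups (8 LEV and 7 VEH, without 1 VEH animal labelled as excluded), gave few calls. Of 12862 transcripts 7 were called (0.0544%), with 591 at an unadjusted p under 0.05. Of the 190, 188 were also tested there, and 38 of them (20.2%) had the same sign, against 42.8% of all 12772 tested in both. None of the 188 had an adjusted p under 0.05 there (edgeR, and 0 also by DESeq2), while 4 had an unadjusted p under 0.05 in the same direction and 13 in the opposite one. Of all 12772, 240 had an unadjusted p under 0.05 in the same direction and 341 in the opposite one. The 188 had a median log2 fold change of 0.07 in animals 7 to 14, where it had been -0.40 in animals 1 to 6.

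**Figure D5:**
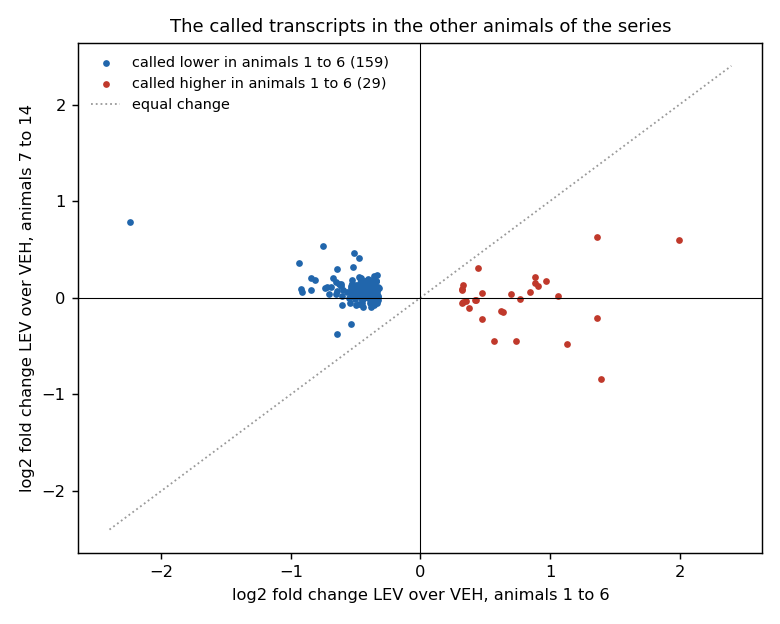
Log2 fold change of LEV over VEH in animals 1 to 6 (x axis) and in animals 7 to 14 (y axis) for the 188 transcripts called in the former and tested in both. Most points lie left of 0 on the x axis and above 0 on the y axis, and 38 of the 188 have the same sign in both.

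Slc1a3 NM_019225 had log2 fold changes of -0.42 ± 0.04 in animals 1 to 6 and 0.01 ± 0.05 in animals 7 to 14. Those of Kcnj10 were -0.74 ± 0.08 and 0.10 ± 0.08, and those of Slc4a4 -0.92 ± 0.10 and 0.09 ± 0.09. The difference between the sets was tested in a model of both. The effect of LEV differed for 105 of 13218 transcripts (0.794%), of which 97 had the lower value in animals 1 to 6. They included 76 of the 188, a count favoured by choosing those transcripts in animals 1 to 6. Among them were Kcnj10 (adjusted p = 0.000278), Slc1a3 NM_019225, Slc4a4 and Ncan (adjusted p = 0.00063 each). The difference did not pass for Tnc, Ryr2 NM_032078, Shisa6, Reln, Cpne9, Etv1 NM_001108709, Zbtb20 and Grin2b (adjusted p from 0.0786 to 0.627). Leaving out VEH animal 1, 2 or 3 or LEV animal 3, 4 or 6 took the 105 to 55, 52, 66, 52, 64 and 53.

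LEV was also compared with phenobarbital (PB, 75 mg/kg on the same day), in the 6 PB pups of the same numbering. Of 13112 transcripts 24 were called (0.183%), 14 higher and 10 lower after LEV. Lower after LEV than after PB were Tnc by 0.37 ± 0.06, Vcan NM_001170560 by 0.49 ± 0.08, Itgb8 by 0.68 ± 0.13 and Slc4a4 by 0.43 ± 0.10 on the log2 scale (adjusted p = 0.0076, 0.0076, 0.0262 and 0.0436). Etv1 NM_001108709 was higher by 0.97 ± 0.16 (adjusted p = 0.00827). The skeletal muscle markers Acta1, Atp2a1 and Myh4 were higher by 0.85 ± 0.12, 3.78 ± 0.40 and 3.52 ± 0.38, and against VEH they differed after PB by -0.72, -4.06 and -3.45. The part of muscle tissue in this comparison was not tested.

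PB against VEH, which shares the VEH animals with the main comparison, gave 17 calls (0.13%). Side by side, the log2 fold changes after LEV and after PB were -0.42 and -0.21 for Slc1a3 NM_019225, -0.74 and -0.48 for Kcnj10, -0.92 and -0.49 for Slc4a4, and -0.45 and -0.07 for Tnc. The PB values had adjusted p = 0.0447, 0.00933, 0.0256 and 0.649 (edgeR). For Slc1a2 NM_001302089 they were -0.91 and -0.68, the latter at adjusted p = 0.0238. Between LEV and PB, Kcnj10 and Slc1a2 NM_001302089 did not pass (adjusted p = 0.133 and 0.436), whereas Slc4a4 and Tnc did, as given above.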

How the data were processed

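Per the labels and the study's methods, the authors trimmed and filtered the reads, mapped them to rn6 with STAR 2.7.3a and estimated RefSeq transcript counts in Partek by an expectation-maximization method. The deposited expected counts are not normalized, and whether strand was used is not given in the sources used here. A deposited table of the authors' fold changes and p-values was not used.

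Counts were rounded and tested in R 4.3.3 with edgeR 4.0.16 (TMM, filterByExpr, glmQLFit, glmQLFTest), LEV against VEH without covariates, with Benjamini-Hochberg adjustment. Normalized counts were scaled to the mean effective library size, and log2 CPM used a prior count of 2. On simulated data for this comparison, with planted changes of 2-fold, 182 of 200 changed transcripts were recovered with 6 false calls among 12832. The planted changes were larger than the median change of the calls, and the recovery of smaller changes was not tested. Transcripts were named by rule, as the 12 smallest adjusted p, the 8 largest rises and falls with a mean of at least 50 counts, transcripts of genes the study names for LEV, qPCR genes, Sv2a and Syt1, tissue markers, and up to 4 called per list. Others were chosen after their values were seen, and some items are not reported here. Members and lists were chosen with earlier results of these data known. Alternatives used DESeq2 1.42.0 and limma 3.58.1. The total count per animal limits how well transcripts of few counts are measured.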

Additional observations from a re-analysis of the deposited data

Results flagged for a closer look

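In 11 of 160 groups of 6 animals looked at, 1 animal lay far from the others, where chance gives about 1 in 20. The values are normalized counts. VEH animal 1 stood apart in 4 of them. Eif2s3y was 0.863 in VEH animal 1 and 782 to 940 in the other VEH animals, and Ddx3 was 0 in VEH animal 1 and 578 to 657 in the other VEH animals. The endothelial sum was 11090 in VEH animal 1 and 11625 to 11826 in the other VEH animals. The sum of nuclear-retained RNAs was 19460 in VEH animal 1 and 23963 to 26479 in the other VEH animals.

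VEH animal 3 stood apart in 5. The sum of myelinating oligodendrocyte markers was 33516 in VEH animal 3 and 14728 to 20625 in the other VEH animals, and Opalin, a myelin gene, was 72.4 in VEH animal 3 and 8.04 to 26.4 in the other VEH animals. Cd68 was 27.3 in VEH animal 3 and 14.2 to 18.8 in the other VEH animals. Tnc was 1212 in VEH animal 3 and 1410 to 1506 in the other VEH animals. Slc1a2 NM_017215 was 28.3 in VEH animal 3 and 10.4 to 12.9 in the other VEH animals. In the remaining 2, Apc was 14722 in VEH animal 2 and 12849 to 13213 in the other VEH animals, and Txnrd1 NM_001351981 was 122 in LEV animal 2 and 55.6 to 80.2 in the other LEV animals.

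For 27 named transcripts the effect of LEV differed between animals 1 to 6 and animals 7 to 14 in the model of both sets (edgeR, adjusted p from 0.000278 to 0.0493). The log2 fold change in animals 1 to 6 minus that in animals 7 to 14 was negative for 23 of them, with -0.84 for Kcnj10 NM_031602, -0.44 for Slc1a3 NM_019225, -0.51 for Ncan NM_031653, -1.01 for Slc4a4 NM_053424, -0.56 for Ndst1 NM_024361, -0.51 for Zhx3 NM_001047097, -0.66 for Gpr17 NM_001071777, -0.94 for Sox6 NM_001024751, -0.50 for Gpam NM_017274, -0.58 for Lsm11 NM_001173384, -0.99 for Itgb8 NM_001108726, -0.71 for Grm3 NM_001105712, -0.50 for Apc NM_012499, -3.02 for Atp2a2 NM_001110823, -0.97 for Slc1a2 NM_001302089, -1.29 for Slc5a3 NM_053715, -1.05 for Erbb4 NM_021687, -0.52 for Slc6a11 NM_024372, -0.38 for Ptprz1 NM_013080, -0.41 for Cplx2 NM_053878, -0.58 for Vcan NM_001170560, -2.58 for Slc1a2 NM_017215 and -0.50 for Dnmt3a NM_001003958. It was positive for 4, with 1.61 for Slc1a3 NM_001289943, 0.92 for Rn18s NR_046237, 2.24 for Txnrd1 NM_001351981 and 1.00 for LOC310926 NM_001025002.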

How the results depend on the processing

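In every alternative that tested them, the 190 transcripts kept their sign, and the count of calls stayed within 1.5 times under most settings (231 by DESeq2, 194 by limma-voom, 184 with no filter, 246 with the muscle level in the model). With all 41 libraries in the fit 119 were called, 9 higher. With the adjusted p alone 486 were called, 123 higher and 363 lower, and with a fold change of at least 1.5, 42 were called, 17 higher and 25 lower. Leaving out 1 library gave 137 to 216 calls, 15 to 30 higher (19 without VEH animal 2, 15 without LEV animal 6) and 122 to 186 lower, and 105 of the 190 were called in all 12 such fits. With the animal number as a replicate block 135 were called, 17 higher. The labels do not say whether equal numbers mark littermates. Same-numbered animals correlated at -0.27 to 0.25 and 1 of 6 matched its own number best, which cannot decide this in 6 pairs.

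In animals 7 to 14 the 7 calls became 11 by DESeq2, 5 with the block and 0 by edgeR with the excluded VEH animal kept (395 at an unadjusted p under 0.05), and 4 to 8 leaving out 1 library (4 without VEH animal 9, 10 or 13). The 105 differences between the sets became 176 by DESeq2 and 52 to 115 leaving out 1 library. The 24 calls against PB became 44 by DESeq2, 10 with the block and 9 to 28 leaving out 1 library (15 without VEH animal 5 or PB animal 2, 10 without PB animal 3, 9, 12, 10 and 10 without LEV animal 2, 3, 5 and 6). Over the 48 called named transcripts 1023 of 1149 values stayed on their side of the limits and 126 did not, and 35 transcripts passed in all 12 fits leaving out 1 library. Myh4 was higher by 2.25 normalized counts after LEV, and the difference was -1.31 without VEH animal 1 (exact permutation p = 0.935). The cause of these changes was not tested.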
